A study of Mus musculus with 9 samples.

Results

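Described here are 38 genes of the ATF4 stress response and the tRNA synthetases that accompany it, measured in CD4+ T cells that carry or lack a working Kdm6a gene. Kdm6a, also called Utx, is an X-linked gene for an enzyme that removes methyl groups from histone H3 lysine 27. The 38 genes were taken by their symbols from a table of 39017 Ensembl gene IDs, by a rule that used no measured value, although the list was drawn up with earlier results of these data known. All 38 were found in the table, and all 38 passed the filter on low counts.

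The samples were CD4+ T cells from lymph nodes of male C57BL/6 mice, 4 cKO and 5 WT. Both genotypes carried the floxed/y Kdm6a allele. The cKO mice were CD4-Cre (+/-), which puts the recombinase under control of the CD4 gene, and the WT mice were CD4-Cre (-/-), so that the presence of Cre and the loss of Kdm6a cannot be told apart. The labels give no age and no stimulation of the cells, although the deposited table is named with the word stim. They also do not say that samples of a genotype are separate mice, so p-values here reflect only how far these samples spread, and that spread may be technical.

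ATF4 is a transcription factor made when translation is held back. Kinases that sense stress, among them GCN2 (Eif2ak4) for uncharged tRNA and PERK (Eif2ak3) for unfolded protein in the endoplasmic reticulum, phosphorylate the initiation factor eIF2, which lowers overall translation while the Atf4 mRNA is translated better. ATF4 then turns on genes for amino acid synthesis, amino acid transport and tRNA charging, often through a DNA element it binds together with a C/EBP partner. In T cells this programme is known to serve growth after activation and the response to amino acid shortage. Much of its control lies in translation, which RNA counts do not measure.

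The element was searched in promoter windows that reach from 250 bases before to 50 bases after each RefSeq start, as TGATGNAA on either strand (TTNCATCA on the other). A window was at hand for 31 of the 38 genes, and 10 of them, 32.3%, held a match: Nupr1, Trib3, Chac1, Asns, Pycr1, Aars, Gars, Iars, Tars and Yars. Of the 27025 mouse genes with a window, 1219 held one, 4.51%. A match is a run of letters and not a measured binding site. The windows of Stc2 and Eif2ak4, the only 2 of the 38 genes called between genotypes below, held none. Shown are 4 windows, 1 for each role that had a match, each from the matching gene with the smallest p of its role, chosen after the values were seen. They come from RefSeq on GRCm38.p6 and read 5′ to 3′ on the strand of the gene, with the match in capitals. They are Asns at chr6:7693160-7693459 on the minus strand, Chac1 at chr2:119350992-119351291 on the plus strand, Iars at chr13:49681880-49682179 on the plus strand and Nupr1 at chr7:126625421-126625720 on the minus strand.
Asns: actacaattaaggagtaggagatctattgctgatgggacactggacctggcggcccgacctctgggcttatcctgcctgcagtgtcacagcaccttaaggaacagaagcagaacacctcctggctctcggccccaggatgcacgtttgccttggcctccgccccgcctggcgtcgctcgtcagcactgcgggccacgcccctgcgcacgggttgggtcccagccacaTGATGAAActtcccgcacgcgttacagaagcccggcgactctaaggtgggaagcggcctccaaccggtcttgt
Chac1: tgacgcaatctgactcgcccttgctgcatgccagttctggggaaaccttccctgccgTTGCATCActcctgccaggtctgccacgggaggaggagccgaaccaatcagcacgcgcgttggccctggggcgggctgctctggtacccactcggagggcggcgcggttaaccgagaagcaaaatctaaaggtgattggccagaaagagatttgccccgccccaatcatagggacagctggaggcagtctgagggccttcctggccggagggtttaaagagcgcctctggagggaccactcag
Iars: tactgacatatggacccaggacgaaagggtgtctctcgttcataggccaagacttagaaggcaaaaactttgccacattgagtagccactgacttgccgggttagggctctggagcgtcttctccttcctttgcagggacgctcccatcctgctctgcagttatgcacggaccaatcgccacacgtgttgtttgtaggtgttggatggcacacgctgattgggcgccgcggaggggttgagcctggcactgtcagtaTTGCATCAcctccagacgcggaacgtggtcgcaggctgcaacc
Nupr1: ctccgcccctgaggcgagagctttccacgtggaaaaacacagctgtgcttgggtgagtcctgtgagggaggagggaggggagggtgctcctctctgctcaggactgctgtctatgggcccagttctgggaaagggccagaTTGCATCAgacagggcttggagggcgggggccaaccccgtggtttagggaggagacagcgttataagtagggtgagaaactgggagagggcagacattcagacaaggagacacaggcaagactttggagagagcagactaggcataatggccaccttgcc
In Asns the match ran from position -23 to -16 before the start, in the orientation of the gene. The other 3 were in the opposite orientation, at -193 to -186 in Chac1, at 8 to 15 in Iars and at -110 to -103 in Nupr1.

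The samples held 20587482 to 26387488 counts. Kdm6a itself had 41.8, 42.7, 41.5 and 44.8 CPM in cKO samples 2, 6, 7 and 8, against 62.4, 60.04, 63.8, 63.4 and 63.8 CPM in WT samples 1, 3, 4, 5 and 9, where CPM is the usual depth-scaled count, here after TMM scaling. It fell by 31.9% in cKO, a log2 fold change of -0.55 (SE 0.04, edgeR adjusted p = 2.89e-05). Exons that Cre does not delete still add to this count. The 5 markers of CD4 T cells summed to 1652 to 1762 CPM in cKO and 1628 to 1782 CPM in WT, with Cd4 giving more than any other. By edgeR, Cd4 was higher in cKO (log2 fold change 0.13, adjusted p = 0.0480), Cd3d and Cd3g were lower (-0.19 and -0.23, adjusted p = 0.0476 and 0.0311), and Cd3e and Trac were not called. The 32 markers of other cell types summed to 138 to 158 CPM in cKO and 152 to 169 CPM in WT, mostly Pecam1. Listed with Pecam1 for stroma and vessel, Cdh5, Col1a1 and Pdgfrb were each at 0.601 CPM or below in every sample. Of the 32 markers 12 were tested, 1 was higher in cKO (Cd8b1) and 2 were lower (Cd79b, Prdm1). S100a8, S100a9, Ly6g, Elane and Hbb-bs were at 0 in every sample. The mitochondrial share of counts was 2.59% ± 0.138 in cKO and 2.38% ± 0.0572 in WT (SD, n = 4 and 5, two-sided exact permutation p = 0.0317). The part of these in the results was not tested, and in bulk samples fewer cells of a type and less RNA per cell cannot be told apart.

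Few genes of the programme passed the test between genotypes. By edgeR's quasi-likelihood test, with p-values adjusted over 14693 genes, 2 of the 38 genes rose in cKO (Stc2 and Eif2ak4), 0 fell and 36 were not called. That is 5.26% called, against 15.8% of all genes tested, of which 1028 were higher in cKO and 1296 (8.82%) lower. At an unadjusted p below 0.05, 8 were higher and 2 lower, 26.3% against 31.1% of all genes. DESeq2 called 4 higher and 1 lower, and limma-voom 3 higher and 0 lower. The median log2 fold change of the 38 genes was 0.0854, against 0.0012 for all genes, and 27 of the 38 (71.1%) were above 0, against 50.4% of all genes. Without cKO 2 alone the median was 0.0361. Most differences were small and tightly bounded. The 95% interval lay within a 1.2-fold change either way for 23 of the 38 genes (60.5%, against 44.1% of all genes), and within 1.5-fold for 31 (81.6%, against 76.0%).

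**Figure D1:**
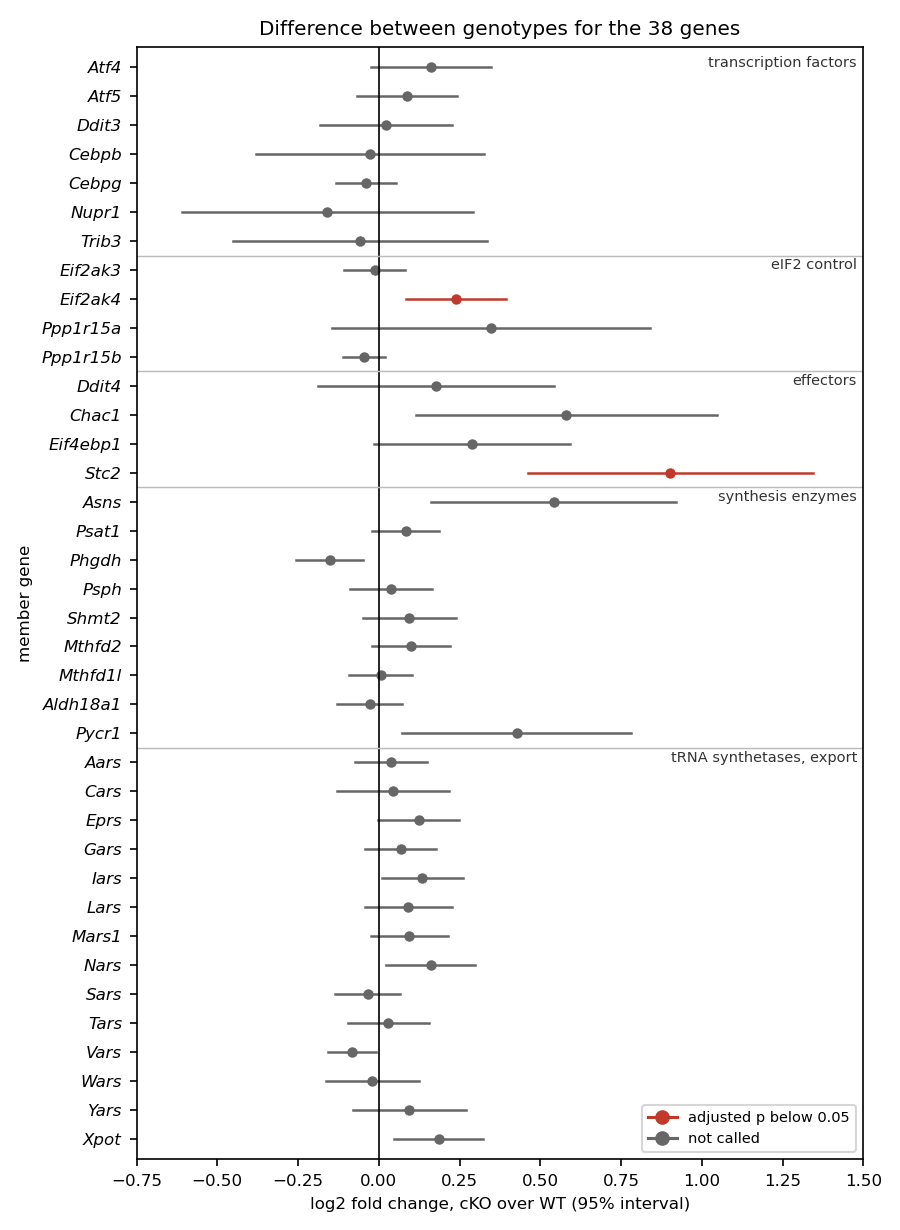
Log2 fold change of each of the 38 genes, cKO over WT, with its 95% interval, grouped by role. Only Stc2 and Eif2ak4 are marked as called, and the 13 synthetases lie between -0.08 and 0.16.

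The transcription factors of the response, grouped here with the pseudokinase gene Trib3, did not pass the test. Of these 7 genes, 0 were called (against 15.8% of all genes), and 0 had an unadjusted p below 0.05 (against 31.1%). Atf4 itself had 388, 364, 308 and 337 CPM in cKO samples 2, 6, 7 and 8, against 330.5, 324.5, 279, 355 and 273 CPM in WT samples 1, 3, 4, 5 and 9. The ranges overlap, with WT 5 above cKO 7 and cKO 8. The log2 fold change was 0.16 (SE 0.09, 95% interval -0.03 to 0.35, edgeR adjusted p = 0.222). Per length of exon, Atf4 was the most abundant of the 38 genes, at 148 CPM per kb in cKO and 132.5 in WT, a scale that rests on the union of annotated exons and includes any retained introns.

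Ddit3 encodes CHOP, a factor linked to cell death in lasting stress. Its levels were 28.5, 22.7, 21.6 and 23.5 CPM in cKO samples 2, 6, 7 and 8, against 20.8, 24.2, 24.8, 27.01 and 21.99 CPM in WT samples 1, 3, 4, 5 and 9. The groups overlap almost wholly, and the log2 fold change was 0.02 (SE 0.09, 95% interval -0.18 to 0.23, edgeR adjusted p = 0.897). Ddit3 shares 68 exonic bases with Mars1 on the other strand. Since the strand setting of the counting is not given in the sources used here, reads there cannot be assigned. It also shares 105 exonic bases with a second Ddit3 ID on the same strand, which has no deposited counts.

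The other genes of this role were Atf5, a relative of ATF4, and Cebpb and Cebpg, which encode C/EBP partners. Nupr1, a small stress-induced nuclear protein, and Trib3, a pseudokinase that dampens the response, complete the role. The log2 fold changes of these genes ran from -0.16 for Nupr1 to 0.09 for Atf5. Cebpg was the best measured of them, at 76.5 to 86.1 CPM in cKO and 81.9 to 86.4 CPM in WT, with a 95% interval of -0.13 to 0.05. Nupr1 was a rare transcript, at 0.768 to 1.30 CPM in cKO and 0.773 to 1.24 CPM in WT, or 16 to 31 reads. In Cebpb, 20.7% of the exonic bases lie over Tmem189 on the opposite strand.

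Of the 4 genes among the 38 that set the phosphorylation of eIF2, 1 rose (25.0% called, against 15.8% of all genes). Eif2ak4 encodes GCN2, the kinase that responds to uncharged tRNA. It had 38.7, 46.1, 39.4 and 40.6 CPM in cKO samples 2, 6, 7 and 8, against 37.4, 35.6, 31.1, 37.8 and 32.9 CPM in WT samples 1, 3, 4, 5 and 9. All cKO samples were above all WT samples, by a narrow margin between cKO 2 and WT 5. The mean was 41.2 ± 3.39 CPM in cKO and 34.96 ± 2.89 CPM in WT (SD, n = 4 and 5), a log2 fold change of 0.24 (SE 0.07, edgeR adjusted p = 0.0417). The call did not hold without cKO 6 (adjusted p = 0.129), cKO 7 (0.0570), cKO 8 (0.0816), WT 3 (0.0716), WT 4 (0.0860) or WT 9 (0.0955). The eIF2 kinase genes Eif2ak1 and Eif2ak2 lie outside the 38, and neither was called. Eif2ak2 had a log2 fold change of 0.31 (SE 0.11, edgeR adjusted p = 0.0832) and passed in 4 of the 17 alternative settings. That of Eif2ak1 was -0.04 (SE 0.03, edgeR adjusted p = 0.422).

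PERK, encoded by Eif2ak3, had a narrow interval around 0. Its values were 43.1, 42.3, 42.8 and 39.9 CPM in cKO samples 2, 6, 7 and 8, against 40.6, 44.5, 43.8, 41.7 and 41.6 CPM in WT samples 1, 3, 4, 5 and 9. The log2 fold change was -0.01 (SE 0.04, 95% interval -0.11 to 0.08, edgeR adjusted p = 0.867). Ppp1r15b, the constant subunit of the phosphatase that reverses the kinases' work, was as tightly bounded, at 266 to 283 CPM in cKO and 282 to 290.1 CPM in WT (95% interval of the log2 fold change -0.11 to 0.02). Of its exonic bases 11.4% lie over Gm26616 on the opposite strand.

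Ppp1r15a encodes GADD34, the stress-induced subunit of that phosphatase, and varied far more. It had 40.2, 40.3, 23.2 and 36.9 CPM in cKO samples 2, 6, 7 and 8, against 37.95, 29.5, 20.4, 33.2 and 17.3 CPM in WT samples 1, 3, 4, 5 and 9. Within each genotype the level differed widely between samples, cKO 7 being low among cKO and WT 4 and WT 9 low among WT. The log2 fold change of 0.35 (SE 0.22, edgeR adjusted p = 0.321) did not pass the test.

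The 4 effectors had the highest median of the 5 roles, a log2 fold change of 0.43. Of these 4 genes 1 rose (25.0% called, against 15.8% of all genes). Stc2 encodes stanniocalcin 2, a secreted glycoprotein induced by stress of the endoplasmic reticulum. It had 4.13, 2.78, 2.93 and 4.34 CPM in cKO samples 2, 6, 7 and 8, against 1.74, 1.89, 1.72, 2.74 and 1.45 CPM in WT samples 1, 3, 4, 5 and 9. Each cKO sample was above each WT sample, though WT 5 came close to cKO 6. The mean was 3.54 ± 0.806 CPM in cKO and 1.91 ± 0.490 CPM in WT (SD, n = 4 and 5), a log2 fold change of 0.90 (SE 0.20, 95% interval 0.46 to 1.34, edgeR adjusted p = 0.0129). Stc2 stayed below the threshold in all 17 alternative settings. It is a rare transcript here, with 38 to 98 reads per sample.

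Chac1, which encodes an enzyme that breaks down glutathione, had 2.98 to 5.69 CPM in cKO and 2.10 to 4.25 CPM in WT, a log2 fold change of 0.58 (SE 0.21, edgeR adjusted p = 0.0886) that passed only when cKO 7 was left out. Eif4ebp1, whose protein holds back cap-dependent translation, had a log2 fold change of 0.29 (SE 0.14, edgeR adjusted p = 0.181). Ddit4, which encodes the mTORC1 inhibitor REDD1, had 181 to 288 CPM in cKO and 158 to 283 CPM in WT, a log2 fold change of 0.18 (SE 0.17, edgeR adjusted p = 0.507).

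**Figure D2:**
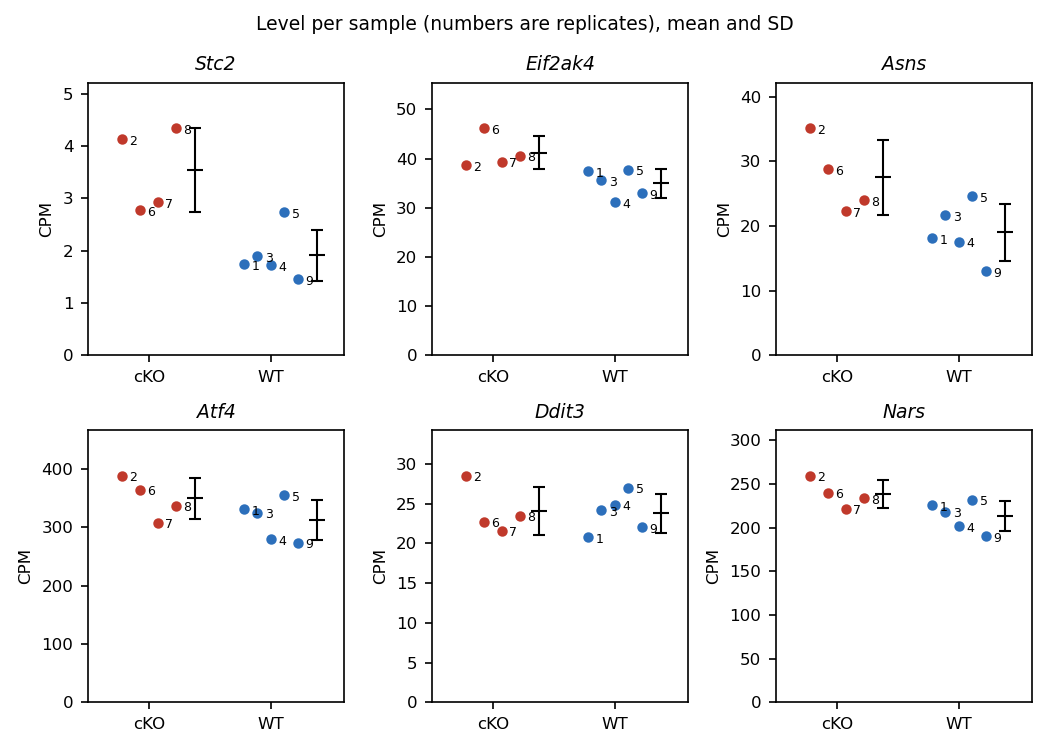
CPM in each of the 4 cKO and 5 WT samples for Stc2, Eif2ak4, Asns, Atf4, Ddit3 and Nars, with the mean and SD beside the points. The groups are apart in Stc2 and Eif2ak4 and overlap in the other 4 genes.

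Of the 9 enzymes of amino acid and one-carbon synthesis, 0 were called, against 15.8% of all genes. Two-sided unadjusted p-values below 0.05 were found for Asns and Pycr1, higher in cKO, and Phgdh, lower in cKO. That is 33.3% of the role, near the 31.1% of all genes. Asns encodes asparagine synthetase and had 35.1, 28.7, 22.2 and 23.9 CPM in cKO samples 2, 6, 7 and 8, against 18.1, 21.6, 17.6, 24.6 and 12.98 CPM in WT samples 1, 3, 4, 5 and 9. WT 5 lay above cKO 7 and cKO 8, and the other WT samples lay below all cKO samples. The log2 fold change was 0.54 (SE 0.17, 95% interval 0.16 to 0.92, edgeR adjusted p = 0.0554), and Asns passed in 6 of the 17 alternative settings, DESeq2 and limma-voom among them.

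Pycr1, the last step of proline synthesis, was at 4.95 to 5.14 CPM in cKO and 2.91 to 4.91 CPM in WT. The ranges do not overlap, but the log2 fold change of 0.43 had an SE of 0.16 and an edgeR adjusted p of 0.0974. Phgdh, the first enzyme of serine synthesis, ran the other way, at 66.97 to 69.4 CPM in cKO and 72.4 to 84.5 CPM in WT. Its log2 fold change of -0.15 (SE 0.05, edgeR adjusted p = 0.0506) just missed the threshold, and passed in 3 of the 17 settings. In all, 3 of the 38 genes had each cKO sample above each WT sample (Eif2ak4, Stc2 and Pycr1) and 1 had each below (Phgdh), 10.5%. Of all genes 15.9% had such ranges, 7.08% above and 8.78% below.

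The next enzymes of the serine pathway and the mitochondrial folate cycle were abundant, with small differences. Psat1 and Psph, which complete serine synthesis, had log2 fold changes of 0.08 and 0.04, Psph sharing 10.4% of its exonic bases with Cct6a on the opposite strand. Shmt2, Mthfd2 and Mthfd1l, which carry serine carbon through the mitochondrial folate pathway, had log2 fold changes of 0.09, 0.10 and 0.01. Aldh18a1, an early step of proline synthesis, was at -0.03. The 95% interval of each of these 6 genes lay within 1.2-fold.

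The 13 cytosolic tRNA synthetases, which load amino acids onto tRNA, gave no call. By edgeR, DESeq2 or limma-voom 0 passed the test, against 15.8% of all genes by edgeR. At an unadjusted p below 0.05 edgeR gave 2 higher and 1 lower, 23.1% against 31.1% of all genes. Their log2 fold changes ran from -0.08 to 0.16 with a median of 0.07, and their SEs from 0.03 to 0.08. The 95% interval lay within 1.2-fold for 11 of the 13 (84.6%, against 44.1% of all genes) and within 1.5-fold for 13 (against 76.0%). Nars, the asparaginyl enzyme, had the smallest p of them. It had 259.6, 240.1, 221.5 and 233.5 CPM in cKO samples 2, 6, 7 and 8, against 226, 218, 202, 232 and 190.4 CPM in WT samples 1, 3, 4, 5 and 9. The groups overlap in that WT 1 and WT 5 lay above cKO 7. The log2 fold change was 0.16 (SE 0.06, 95% interval 0.02 to 0.30, edgeR adjusted p = 0.108).

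Iars, the isoleucyl enzyme, was at a log2 fold change of 0.13 (SE 0.06, edgeR adjusted p = 0.135). Vars, the valyl enzyme, was at -0.08 (SE 0.03, edgeR adjusted p = 0.114). Aars, the alanyl enzyme, shares 14.3% of its exonic bases with Exosc6 on the same strand, an ID without deposited counts. Xpot encodes exportin-t, which carries mature tRNA out of the nucleus. It had 114 to 125 CPM in cKO and 95.4 to 115 CPM in WT, a log2 fold change of 0.19 (SE 0.06, edgeR adjusted p = 0.0676), and passed in 3 of the 17 settings.

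**Figure D3:**
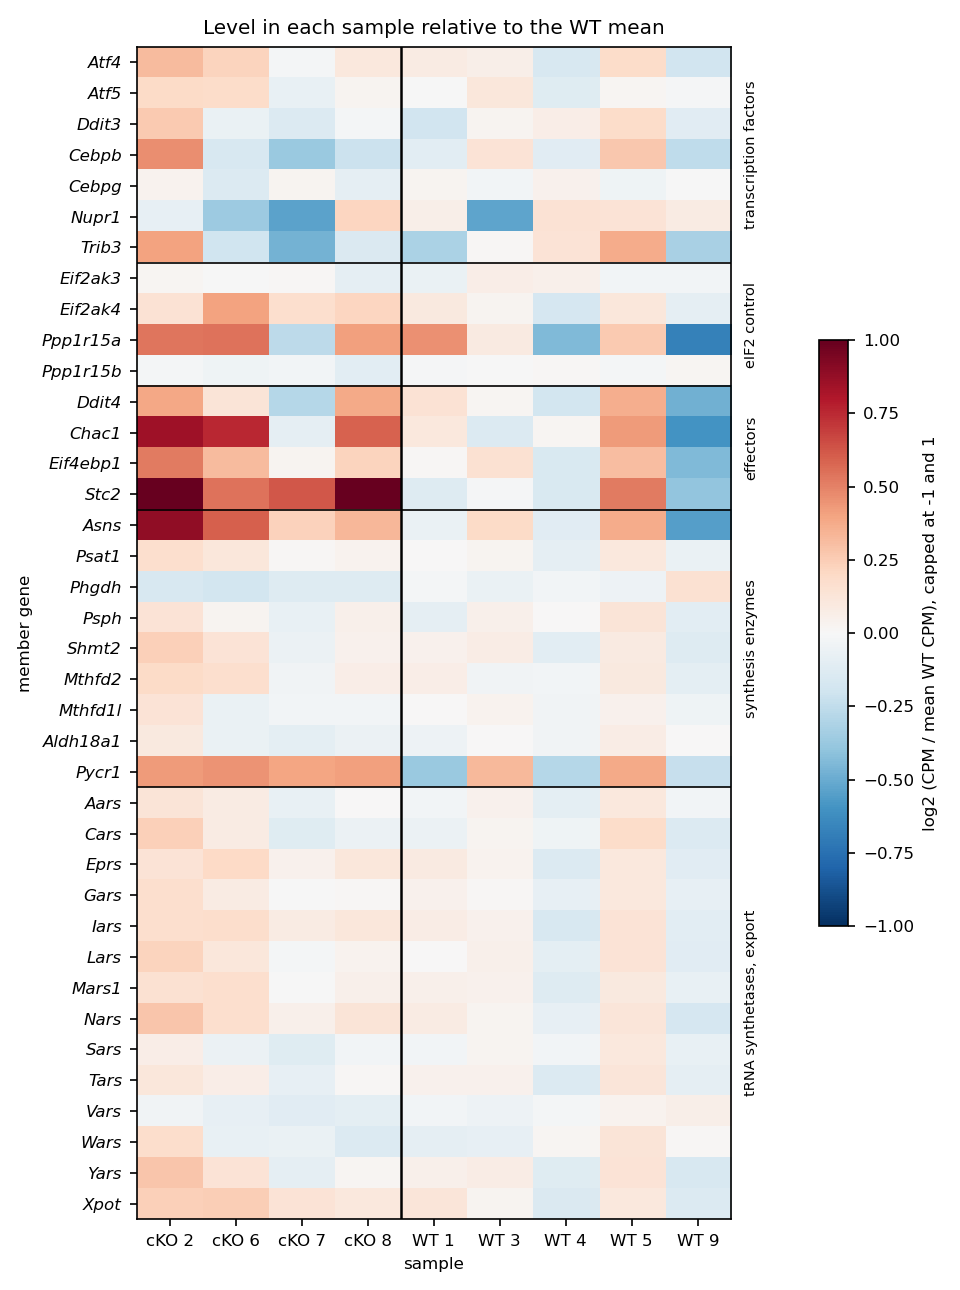
Level of each of the 38 genes (down the page, by role) in each sample (across, 4 cKO and then 5 WT), as the log2 ratio of its CPM to the mean of the WT samples, capped at -1 and 1. Warm columns at cKO 2 and WT 5 cross the line between genotypes.

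Within each genotype the 38 genes tended to be high and low in the same samples. Of the 38, 28 were highest among the cKO samples in cKO 2 (73.7%, against 27.3% of all genes) and 29 were lowest in cKO 7 (76.3%, against 24.4%). Among the WT samples, 29 were highest in WT 5 (76.3%, against 2648 of the 14693 genes tested) and 19 were lowest in WT 9 (against 20.4%). The same 23 genes were highest in both cKO 2 and WT 5 (60.5%, against 7.29% of all genes). Of the 13 synthetases, 10 were highest in cKO 2, 12 in WT 5 and 9 in both. The members' counts in a sample are not independent of each other, and these shares are a description with no test.

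Summed over the 38 genes, the level was 6115, 5771, 5287 and 5582 CPM in cKO samples 2, 6, 7 and 8, against 5542, 5529, 5149, 5879 and 5117 CPM in WT samples 1, 3, 4, 5 and 9. WT 5 was above cKO 6, cKO 7 and cKO 8. The means were 5689 ± 347 CPM in cKO and 5443 ± 317 CPM in WT (SD, n = 4 and 5). With library totals in place of TMM, 23 of the 38 genes were highest in cKO 2 and 27 in WT 5, and with DESeq2 size factors or upper-quartile scaling the counts were 28 and 29. Of 20 genes of mitochondrial tRNA charging, 5 were highest in cKO 2, 5 in WT 5 and 0 in both. These 20 serve the organelle's own ribosomes and are synthetases apart from Gatb, Gatc and Qrsl1, subunits of an amidotransferase. The peak in cKO 2 was not confined to the 38 genes. Of the 22 other ATF4-linked genes tested, 14 were highest in cKO 2 (63.6%), 12 in WT 5 (54.5%) and 10 in both (45.5%). Of 11 other cytosolic synthetases and scaffold proteins, 8 were highest in cKO 2 (72.7%) and 3 in WT 5 (27.3%), and of 16 genes of the IRE1 and ATF6 arms, 11 were highest in cKO 2 (68.8%) and 5 in WT 5 (31.2%). Of 13 further genes of the eIF2 arm 5 were highest in each of cKO 2 and WT 5, and of 15 one-carbon and nucleotide genes 5 in cKO 2 and 2 in WT 5. Without cKO 2 and WT 5, a setting chosen after the data were seen, 2 of the 38 genes were called higher and 0 lower, and the median log2 fold change was 0.0586.

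**Figure D4:**
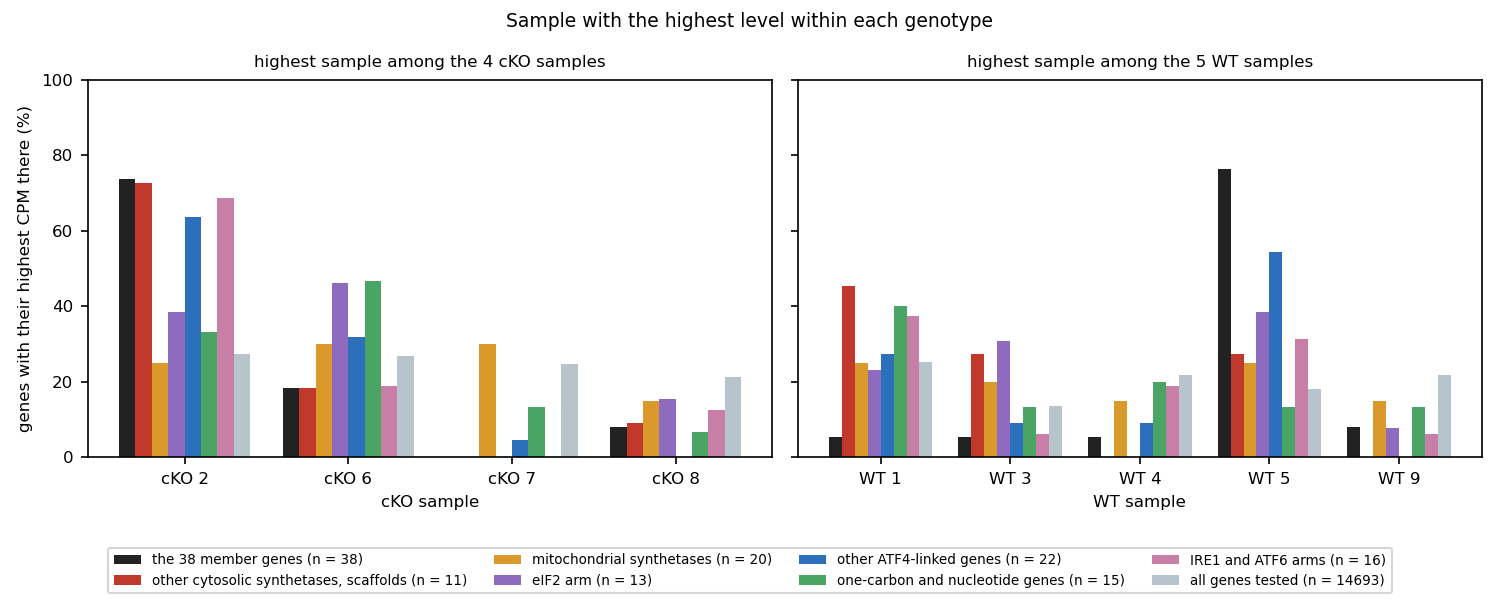
Share of genes (%) whose highest CPM within a genotype fell in each sample, for the 38 genes, the 6 lists of neighbouring genes and all genes tested. For the 38 genes the share was 73.7% in cKO 2 and 76.3% in WT 5, and the other ATF4-linked genes (63.6%), other cytosolic synthetases (72.7%) and IRE1 and ATF6 arms (68.8%) also peaked in cKO 2.

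Beyond the 38, 99 genes of neighbouring pathways were examined in 6 lists, drawn up with earlier results of these data known. The shares called in these lists are therefore descriptions with no test. Of the 99 genes 97 were tested, 8 were higher in cKO and 4 lower, which is 12.4% called, against 15.8% of all genes. Among 24 further genes linked to ATF4, 22 were tested and 6 rose, with 0 lower (27.3% called in either direction, against 15.8% of all genes) and a median log2 fold change of 0.18; Fgf21 and Gdf15 were too low to test. Cth, which makes cysteine from cystathionine, had 3.33, 4.18, 2.88 and 2.86 CPM in cKO samples 2, 6, 7 and 8, against 1.71, 1.68, 1.72, 1.98 and 1.45 CPM in WT samples 1, 3, 4, 5 and 9. The groups are well apart, with a log2 fold change of 0.96 (SE 0.15, edgeR adjusted p = 0.00243). Like Stc2, Cth is a rare transcript here, with 38 to 101 reads per sample. Bcat1, the cytosolic aminotransferase of branched-chain amino acids, had 94.8, 109.8, 87.1 and 87.2 CPM in cKO samples 2, 6, 7 and 8, against 79.4, 66.6, 55.7, 70.7 and 59.4 CPM in WT samples 1, 3, 4, 5 and 9. No WT sample reached a cKO sample, and the log2 fold change was 0.51 (SE 0.10, edgeR adjusted p = 0.00733).

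Sesn2, an inhibitor of mTORC1 that senses leucine and is a target of p53 as well, had 75.5, 84.7, 65.5 and 71.9 CPM in cKO samples 2, 6, 7 and 8, against 59.8, 51.9, 38.5, 57.7 and 38.2 CPM in WT samples 1, 3, 4, 5 and 9. The ranges do not overlap, and the log2 fold change was 0.60 (SE 0.14, edgeR adjusted p = 0.0142). Cth, Bcat1 and Sesn2 passed in all 17 alternative settings. Nfe2l1, a transcription factor for proteasome genes, rose by a log2 fold change of 0.16 (SE 0.05, edgeR adjusted p = 0.0372), a call that was lost without cKO 6, cKO 7, cKO 8, WT 4, WT 5 or WT 9 (adjusted p 0.0600 to 0.115) and with no count filter (0.0538). The remaining 2 that rose were the amino acid transporters Slc1a4 and Slc7a3, each passing in 10 of the 17.

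The endoplasmic reticulum has 2 further stress arms, run by IRE1 and ATF6. Of 16 genes of these arms 3 fell and 0 rose (18.8% called in either direction, against 15.8% of all genes), and the median log2 fold change was -0.08. Xbp1, whose mRNA is spliced by IRE1 to yield the arm's transcription factor, had 210.3, 137, 197 and 193.5 CPM in cKO samples 2, 6, 7 and 8, against 252, 295, 295, 251 and 324 CPM in WT samples 1, 3, 4, 5 and 9. Every cKO sample lay below every WT sample, and the level fell by 34.9% in cKO, a log2 fold change of -0.62 (SE 0.12, edgeR adjusted p = 0.00599). Gene counts do not separate spliced from unspliced Xbp1. Dnajc3, a co-chaperone that also inhibits PERK, had a log2 fold change of -0.17 (SE 0.05, edgeR adjusted p = 0.0261). Sec61b, a subunit of the translocon, had one of -0.16 (SE 0.04, edgeR adjusted p = 0.0249). The call of Dnajc3 was lost without cKO 6, cKO 8, WT 3 or WT 4 (adjusted p 0.0556 to 0.0785), and that of Sec61b without cKO 6, cKO 7, WT 3, WT 4 or WT 5 (0.0509 to 0.0810), while Xbp1 passed in all 17 settings. Beside these, the plasma cell markers summed to 7.40 to 12.95 CPM in cKO and 9.93 to 16.7 CPM in WT. Most of that sum was Prdm1, which was lower in cKO (means 6.59 CPM in cKO and 11.6 CPM in WT). Sdc1 went the other way, at means of 3.42 CPM in cKO and 2.31 CPM in WT. Its log2 fold change of 0.57 was not called (edgeR adjusted p = 0.0747). Jchain and Tnfrsf17 were too low to test. The part of plasma cells in the fall of Xbp1 was not tested.

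**Figure D5:**
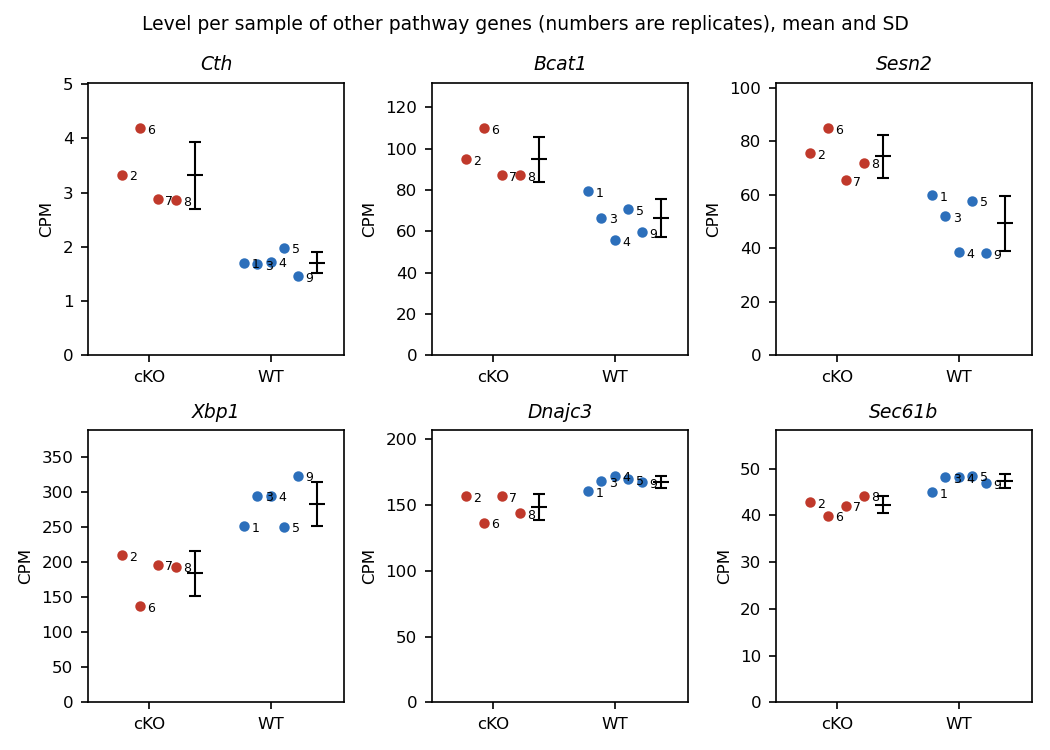
CPM in each of the 4 cKO and 5 WT samples for Cth, Bcat1 and Sesn2 (top row) and Xbp1, Dnajc3 and Sec61b (bottom row), with the mean and SD beside the points. In the top row cKO samples lie above WT samples, and in the bottom row below them.

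Elsewhere in tRNA charging, initiation and one-carbon metabolism calls were fewer than the 15.8% of all genes: 1 of 11 (9.09%), 1 of 20, 1 of 13 (7.69%) and 0 of 15. Among 11 other cytosolic synthetases and scaffold proteins, Qars, the glutaminyl enzyme, was lower by a log2 fold change of -0.11 (SE 0.03, edgeR adjusted p = 0.0259), at 127 to 132 CPM in cKO and 139 to 142 CPM in WT. Among the 20 genes of mitochondrial tRNA charging, Wars2, the tryptophanyl synthetase, was higher by 0.26 (SE 0.07, edgeR adjusted p = 0.0270). It ran from 17.5 to 19.1 CPM in cKO and 13.3 to 16.8 CPM in WT. Among 13 further genes of the eIF2 arm, Eif2s3y, the Y-linked gene for the gamma subunit of eIF2, was higher by 0.17 (SE 0.05, edgeR adjusted p = 0.0352), at 97.9 to 115.6 CPM in cKO and 90.3 to 99.8 CPM in WT. Its X-linked copy Eif2s3x is nearly identical, so the split of reads between them is uncertain. Each of these 3 calls was lost in some settings. With all samples kept, Qars missed the threshold with upper-quartile scaling (adjusted p = 0.0545) and with no count filter (0.0694). With a sample left out, calls were lost for Qars without cKO 6, cKO 7, cKO 8, WT 3 or WT 5 (adjusted p 0.0524 to 0.0723), Wars2 without cKO 7, cKO 8, WT 4 or WT 9 (0.0535 to 0.0755), and Eif2s3y without cKO 6, cKO 7, cKO 8, WT 1, WT 3, WT 4 or WT 5 (0.0525 to 0.105). Of 15 one-carbon and nucleotide genes 0 were called, with 1 higher and 2 lower at an unadjusted p below 0.05, 0 higher and 1 lower by DESeq2, and 0 by limma-voom. Tyms, thymidylate synthase, had a log2 fold change of -0.15 (SE 0.05, edgeR adjusted p = 0.0516). Mthfd2l, a mitochondrial folate enzyme, had one of 0.55 (SE 0.19, edgeR adjusted p = 0.0683).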

How the data were processed

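For the 9 samples (4 cKO, 5 WT), a Direct-zol kit gave the RNA and a KAPA stranded kit, which enriches mRNA, the libraries, per the labels' protocols. The authors deposited raw counts per Ensembl gene ID, whole numbers without normalization. The submitters' processing notes name bcl2fastq 2.17 and mm10; for aligner, counting tool, strand setting and annotation the answer is not given in the sources used here. Columns were matched to samples by title, with 0 columns of no sample, and no 2 samples of a genotype agreed within sampling noise (chi-square per gene 3.34 to 20.3).

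The whole table was tested with edgeR 4.0.16 (R 4.3.3): TMM normalization, filterByExpr, quasi-likelihood F test, two-sided, Benjamini-Hochberg adjusted p below 0.05 over 14693 genes. Fold changes are cKO over WT, with 95% intervals, and the biological coefficient of variation was 8.04%. Each sample held at least 20587482 counts, and reads carried no stated molecular identifiers, so they need not be independent molecules. Alternatives were DESeq2 1.42.0, limma-voom (limma 3.58.1), other scalings and filters, robust fitting and leaving out samples. The scripts were tested on simulated data.

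The 38 genes and all lists were chosen with earlier results of these data known. Values per sample are given for called members, for Atf4, Ddit3, Asns, Eif2ak3, Ppp1r15a and the synthetase with the smallest p. From each pathway list up to 4 called genes are named, or the 2 with the smallest p where 0 were called. Eif2ak1, Eif2ak2, Pycr1, Phgdh, Chac1, Iars, Vars, Xpot, Slc1a4 and Slc7a3 were named after their values were seen. Positions and exons came from a GENCODE annotation of mm10, promoters from RefSeq.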

Additional observations from a re-analysis of the deposited data

Results flagged for a closer look

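Of 102 sets of values within a genotype (51 genes), 4 held a sample far from the rest, and chance alone marks about 1 in 20 such sets. Nfe2l1 was at 162.6 CPM in cKO 6, against 147.7 to 149.1 CPM in the other cKO samples. Mthfd1l was at 197.7 CPM in cKO 2, against 171.4 to 175.9 CPM in the other cKO samples. Phgdh was at 84.52 CPM in WT 9, against 72.41 to 74.88 CPM in the other WT samples. Nupr1 was at 0.773 CPM in WT 3, against 1.163 to 1.235 CPM in the other WT samples.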

How the results depend on the processing

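Over 7 other settings and 9 left-out samples, no result changed direction among called genes, and 0 of the 13 cytosolic synthetases were called. Members called higher, 2 of 38, became 4 with upper-quartile scaling, 4 with DESeq2, and 1 to 4 with a sample left out: 1 without cKO 6, cKO 8, WT 3, WT 4 or WT 9, and 4 without WT 5. Members called lower, 0, became 1 with a minimum of 1 CPM in 4 samples, 1 with DESeq2 and 1 with robust fitting, Phgdh each time, and stayed 0 to 0 with a sample left out. The members outside the 13 synthetases are the stress and synthesis genes and Xpot. Of these 25, the 2 called became 4 with upper-quartile scaling, 5 with DESeq2, and 1 to 4 with a sample left out. Xpot was among the calls with upper-quartile scaling, with DESeq2 and without WT 1. Other pathway genes called, 12, became 15 with DESeq2, 13 with robust fitting, and 5 to 13 with a sample left out, with 5 without cKO 6 or cKO 8 and 6 without WT 3 or WT 4. Genes called over the whole table, 2324, became 1263 (without cKO 6) to 2933 (without WT 1). The median log2 fold change of the 38 genes (0.0854) ran from 0.0361 without cKO 2 to 0.1166 without cKO 7. Upper-quartile scaling put 54.2% of all calls on the higher side, against 44.2%, and moved the median of all genes to 0.0195. The cause of these shifts was not tested. No paired analysis was possible because every replicate number occurs in 1 sample only. Genes of a few reads, such as Nupr1, Stc2 and Cth, are limited by depth.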
